A study of Rattus norvegicus with 5 samples.

Results

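The oncofetal and imprinted genes of liver described here are 7 of the 12198 genes named on the arrays: Afp, Gpc3, H19, Igf2, Dlk1, Igf2bp2 and Peg3. They were found by gene symbol in the platform annotation of Rat Whole Genome CodeLink arrays, and every probe annotated to 1 of them alone was taken. That gave 8 of the 33849 discovery probes and covered 6 of the 7 genes, with 2 probes each for Afp and Gpc3 and 1 each for H19, Igf2, Dlk1 and Igf2bp2. Peg3 had no probe under its symbol.

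The study set rat hepatocellular carcinoma lines of different metastatic ability beside each other and beside normal liver. Total RNA of N1 and L2, the high-metastatic lines, of C5F and C6, the low-metastatic lines, and of 1 untreated liver was hybridised to 1 array each. The labels give liver tumours of male F344 rats aged 31 weeks, exposed to N-nitrosomorpholine and diethylnitrosamine, as the origin of all 4 lines. The liver came from a male SD rat aged 50 weeks, so that strain, age, carcinogen, culture and tumour all separate the lines from the liver and cannot be told apart. Each line is 1 culture, the liver is 1 tissue piece holding several cell types, and no array has a replicate of its own. The spread used as error is therefore the spread between the lines of a class.

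Oncofetal genes are active in fetal liver, are shut off after birth and can return in liver tumours. Afp encodes alpha-fetoprotein, the fetal counterpart of serum albumin. Gpc3 encodes glypican-3, a heparan sulphate proteoglycan on the cell surface, and Igf2bp2 an RNA-binding protein that binds Igf2 and other transcripts. H19, Igf2, Dlk1 and Peg3 are imprinted, which means that only the maternal copy (H19) or only the paternal copy (Igf2, Dlk1, Peg3) is normally transcribed. H19 is a long noncoding RNA that neighbours the growth factor gene Igf2 and shares an imprinting control region with it, and Dlk1 encodes a membrane protein of hepatoblasts.

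The promoters of the 3 genes with the widest differences in signal are shown because they differ in kind, and because Afp and 1 of the 2 Gpc3 probes were highest in the same line. Each window runs from 250 bases before to 50 bases after the gene's start and is given 5′ to 3′ on the gene's strand, from RefSeq on GRCr8. Afp lies at chr14:17875596-17875895 (minus strand), Gpc3 at chrX:137157549-137157848 (minus strand) and Igf2bp2 at chr11:92378658-92378957 (plus strand). Capitals mark matches to TATAAA (the TATA box), GTTAAT (the core of the element bound by the liver factor HNF1) and CCAAT, searched on both strands, so that CCAAT on the other strand reads ATTGG.
Afp: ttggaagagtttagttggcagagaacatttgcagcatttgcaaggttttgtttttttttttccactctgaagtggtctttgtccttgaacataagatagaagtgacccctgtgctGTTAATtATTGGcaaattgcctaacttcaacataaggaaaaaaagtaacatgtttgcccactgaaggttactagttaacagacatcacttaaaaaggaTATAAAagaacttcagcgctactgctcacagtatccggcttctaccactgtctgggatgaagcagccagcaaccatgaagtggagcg
Gpc3: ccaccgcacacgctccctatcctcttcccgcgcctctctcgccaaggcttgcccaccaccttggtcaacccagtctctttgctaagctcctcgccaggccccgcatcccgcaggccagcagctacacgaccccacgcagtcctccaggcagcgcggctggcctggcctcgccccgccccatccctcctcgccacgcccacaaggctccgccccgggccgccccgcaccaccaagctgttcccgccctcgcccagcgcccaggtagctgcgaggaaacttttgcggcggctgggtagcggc
Igf2bp2: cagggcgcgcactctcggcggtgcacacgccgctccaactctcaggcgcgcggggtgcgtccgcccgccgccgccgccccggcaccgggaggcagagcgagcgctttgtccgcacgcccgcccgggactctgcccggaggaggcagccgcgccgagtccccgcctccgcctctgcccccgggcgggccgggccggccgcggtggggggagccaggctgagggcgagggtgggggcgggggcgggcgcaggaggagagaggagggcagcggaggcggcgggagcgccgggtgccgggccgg

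The Afp window held TATAAA 37 bases before the start, GTTAAT 135 bases before it and ATTGG 128 bases before it, with no overlap between them. Among all 33469 rat promoter windows of this length, 14.2% held TATAAA, 7.45% GTTAAT and 37.5% CCAAT. The Gpc3 and Igf2bp2 windows held none of the 3. Afp had 3 CG dinucleotides and 40.3% G and C, against a median of 7 CG and 51.7% over all windows. Gpc3 had 27 CG and 71.0%, and Igf2bp2 46 CG and 82.3%. A match describes these letters and is not a shown binding site. RefSeq places a miRNA hairpin within H19 on the minus strand. Its mature strands, at chr1:207161800-207161821 (5p) and chr1:207161766-207161786 (3p), are shown because H19 is their host RNA. They have different seeds (bases 2 to 8, in capitals) and were not measured on these arrays.
rno-miR-675-5p: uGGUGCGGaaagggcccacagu
rno-miR-675-3p: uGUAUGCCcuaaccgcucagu

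Between 10367 (liver) and 13276 (C5F) discovery probes per array were called above background, or 30.6% to 39.2%. Levels below are log2 of the quantile-normalised signal, with dim spots raised to a floor of 1.34, and "near background" is the scanner software's own call. Values of different probes have no common scale and are not set against each other. Of 11 hepatocyte markers, 1 was above background in N1, 0 in L2, 7 in C5F, 0 in C6 and 9 in liver, with summed signals of 67.9, 29.0, 3390, 30.6 and 47550. Alb itself was near background in all 4 lines, C5F included. Kupffer cell and macrophage markers were above background for 2 of 7 genes in each line and 7 of 7 in liver, and stellate cell and fibroblast markers for 1 to 2 of 7 in the lines and 4 of 7 in liver. Sinusoidal endothelial markers were above background for 1 to 3 of 6 in the lines and 5 of 6 in liver, and cholangiocyte markers for 0 to 2 of 4 in the lines and 1 of 4 in liver. Only 2 cholangiocyte spots were usable in N1 and 3 each in C6 and liver. Unusable spots count as not above background in all these marker counts. They are also missing from the hepatocyte sums: Apoa1 in liver, Cyp2e1 in C5F, and Tat in L2 and C6. Tat was the 1 marker above background in N1, so the sum of N1 is not comparable with those of L2 and C6. The 1 erythroid marker with a probe was above background in liver alone, and of 4 lymphocyte markers 1 to 2 were above background in the lines and 2 in liver.

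**Figure D1:**
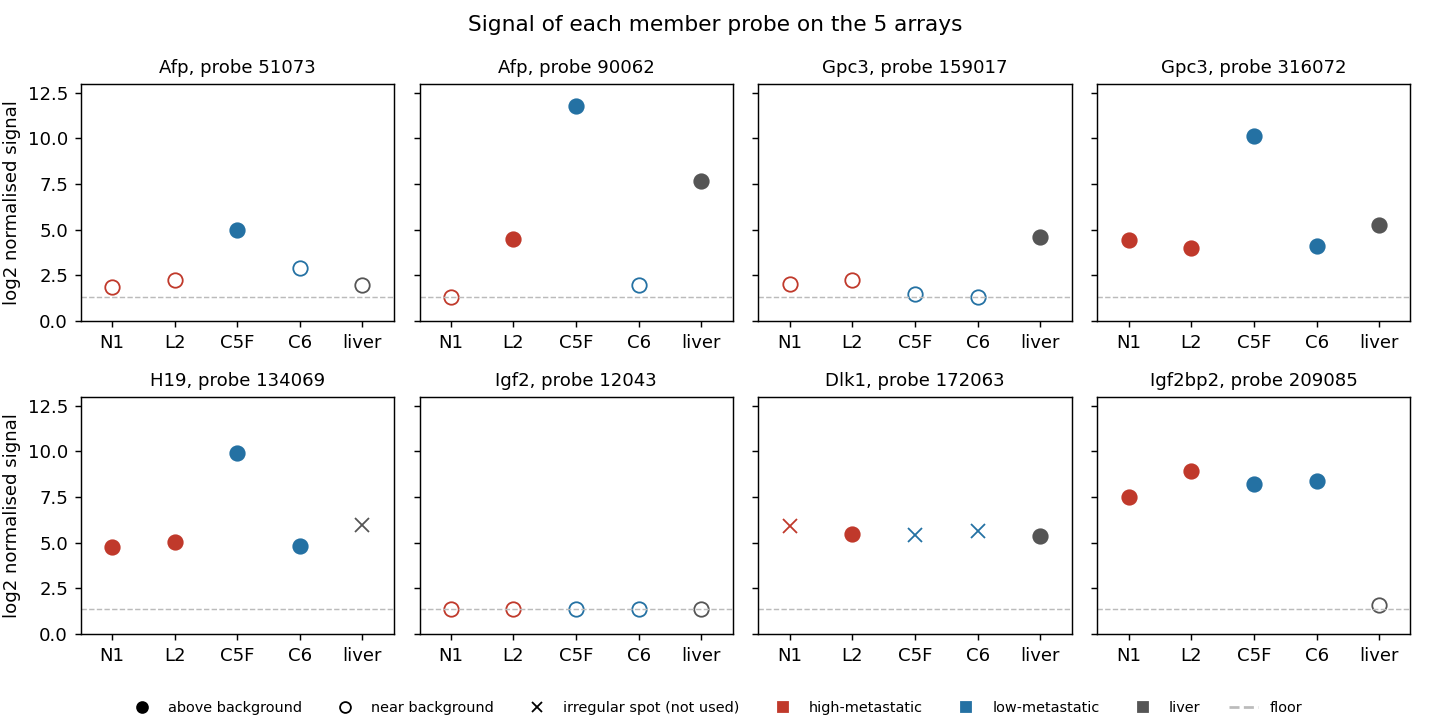
Log2 normalised signal (vertical axis) of each of the 8 probes on the arrays of N1, L2, C5F, C6 and liver; filled points are above background, open points near background, crosses irregular spots that were not used, and the dashed line is the floor of 1.34. C5F stands at 11.78 for Afp probe 90062, 4.99 for Afp probe 51073, 10.15 for Gpc3 probe 316072 and 9.89 for H19, but is near background at 1.51 for Gpc3 probe 159017, while Igf2bp2 lies between 7.50 and 8.91 in the lines and near background in liver.

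Afp was far brighter in C5F than on any other array. Probe 90062 gave 1.34 in N1 (near background), 4.47 in L2, 11.78 in C5F, 1.97 in C6 (near background) and 7.68 in liver. The order was C5F, liver, L2, and then N1 and C6, whose near-background spots have no order. C5F stood 159-fold above L2, at least 270-fold above N1, at least 300-fold above C6 and 17.2-fold above liver. The lowest spot called above background on the dim array serves as the bound of an "at least" fold. Against liver, L2 was 9.25-fold lower, N1 at least 15.7-fold lower and C6 at least 17.4-fold lower. The low-metastatic class thus held both the brightest and a near-background line. Each of these folds sets 1 array against 1 other, so that none has a test.

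The second Afp probe, 51073, was dim. It gave 1.86 in N1, 2.24 in L2, 4.99 in C5F, 2.90 in C6 and 1.99 in liver, and was above background in C5F alone. C5F stood at least 2.44-fold above N1, 2.85-fold above L2, 2.71-fold above C6 and 2.18-fold above liver. Both Afp probes put C5F on top, but they disagree about liver, which was above background for 90062 and near background for 51073. Probe 51073 was too dim to enter the tests, which needed a spot above background in liver or in 2 lines.

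The 2 probes of Gpc3 disagreed. Probe 316072 gave 4.43 in N1, 4.0 in L2, 10.15 in C5F, 4.1 in C6 and 5.26 in liver, all above background. C5F was again highest, and N1, L2 and C6 lay close together below liver. By this probe C5F was 52.7-fold above N1, 71.0-fold above L2, 66.3-fold above C6 and 29.6-fold above liver. N1 was 1.78-fold, L2 2.40-fold and C6 2.24-fold lower than liver.

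Probe 159017 of Gpc3 gave 2.04 in N1, 2.26 in L2, 1.51 in C5F, 1.34 in C6 and 4.62 in liver. Here the liver alone was above background, and C5F, the brightest array for the other probe, was near background. The lines were lower than liver by at least 1.88-fold (N1), 2.19-fold (L2), 3.12-fold (C5F) and 2.09-fold (C6). The files do not say which part of the Gpc3 transcript each probe reads, so a single level for Gpc3 in C5F cannot be given from these arrays.

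H19 was also far brighter in C5F than in the other lines. Its probe gave 4.75 in N1, 5.04 in L2, 9.89 in C5F and 4.79 in C6, all above background. C5F was 35.2-fold above N1, 28.9-fold above L2 and 34.3-fold above C6, and the other 3 lines lay within a narrow band. The liver spot was called irregular and was left out, so that H19 has no liver level. With irregular spots kept, liver read 5.97, again below C5F.

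Igf2, the neighbour of H19, was near background everywhere. Its probe stood at the floor of 1.34 in N1, L2, C5F, C6 and liver. These spots give only a bound, since the lowest signals called above background were 13.04 in N1, 11.2 in L2, 7.87 in C5F, 11.8 in C6 and 14.6 in liver, in normalised units. A further probe, 124055, is annotated to both Igf2 and Tor1b and was not assigned to either gene. The files give it the same UniGene cluster as the Igf2 probe. It read 2.20 in N1, 2.70 in L2, 2.64 in C6 and 4.19 in liver, all near background, and its C5F spot was irregular. With irregular spots kept, the C5F spot read 7.93, the highest of the 5 arrays for this probe. The Igf2 probe itself thus showed no detectable difference, and whether Igf2 RNA differs in C5F cannot be read from the shared probe.

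Dlk1 was measured with usable spots only in L2 (5.46) and liver (5.39), a ratio of 1.05. Its spots in N1, C5F and C6 were irregular. With them kept, the probe read 5.93 in N1, 5.41 in C5F and 5.63 in C6, and the arrays then differed little. Dlk1 was not tested for either comparison, because the usable spots left no spread within a class. Peg3 is not analysed here. Apeg3, which is antisense to Peg3, has its own probe and was near background on all 5 arrays, and it is not used in place of Peg3.

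Igf2bp2 was bright in every line and near background in liver. Its probe gave 7.50 in N1, 8.91 in L2, 8.20 in C5F, 8.39 in C6 and 1.58 in liver. All 4 lines lay above the liver, with L2 highest and N1 lowest among them. Of neighbours in the order L2, C6, C5F and N1, the gaps from L2 to C6 and from C6 to C5F were smaller than the SD over the lines, and the gap from C5F to N1 was larger. Over liver, N1 was at least 12.4-fold, L2 32.9-fold, C5F 20.1-fold and C6 23.0-fold higher. The related fetal gene Igf2bp3 stood at the floor on all 5 arrays.

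Between the 4 lines and liver, 4 of the 8 probes could be tested, 1 of which rose and 1 fell. Igf2bp2, which rose, passed the filter through the lines alone, and Gpc3 probe 159017, which fell, through the liver alone. Each direction was thus in part set by the filter. Over all 11949 probes tested 18.4% passed an adjusted p of 0.05, with 9.01% higher and 9.38% lower in the lines, so that calls of either kind were common; unadjusted, 38.6% had p under 0.05. One limma model with 3 groups was used, with Benjamini-Hochberg adjustment over all probes. In a bulk sample, fewer cells of a type and less RNA per cell cannot be told apart, which bears on every comparison with liver tissue.

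Igf2bp2 rose to 8.25 ± 0.58 in the lines (SD, n = 4), against 1.58 in the liver (n = 1). The fitted log2 difference was 6.67 ± 0.63 (SE), with limma's adjusted p = 0.0176 and a bound of at least 20.8-fold, and all 4 lines were higher. The call was not kept under every setting. Without C5F its adjusted p was 0.0853 and without C6 0.0877 (range without each line in turn 0.0466 to 0.0877), with the difference between 6.34 and 6.99. It was also lost with the floor at the lowest signal above background (adjusted p = 0.0576) and without the filter on dim probes (0.0532), over a range of 0.00457 to 0.0576 for the other settings. The size of the difference depends on how near-background spots are treated: it was 4.38 with that floor and 2.75 with an offset of 50.

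Gpc3 probe 159017 fell by 2.83 ± 0.22 on the log2 scale (limma, adjusted p = 0.0139), or at least 2.28-fold, with all 4 lines lower than liver. Its SE rests on line spots that were all near background, and the probe entered the tests through its liver spot alone. It lost its call without N1 (adjusted p = 0.0519), C5F (0.0635) or C6 (0.0702), over a range of 0.0483 to 0.0702, and with an offset of 50 in place of the floor (0.0563; range of the other settings 0.00666 to 0.0563). With all 4 line spots near background its size is not fixed either, and the log2 difference was -0.51 with that offset and -0.75 with the floor at the lowest signal above background. Gpc3 probe 316072 differed by 0.41 ± 2.59 (adjusted p = 0.920, limma), a difference far within the spread between lines. Without C5F that difference was -1.07. Afp probe 90062 differed by -2.79 ± 4.38 (adjusted p = 0.672, limma). For these 2 probes the mean of the lines describes no line, since C5F lay above liver and the other lines below it.

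Between high- and low-metastatic lines, 5 of the 8 probes could be tested and 0 were called by limma. Among all 13741 probes tested 0 were called, a share of 0%, and robust empirical Bayes called 0 as well. Unadjusted, 1005 probes (7.31%) had p under 0.05. The smallest adjusted p over all probes was 0.489, so that a missing call says little about any 1 gene.

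Afp probe 90062 averaged 2.91 ± 2.21 in the high-metastatic lines and 6.88 ± 6.94 in the low-metastatic lines (SD, n = 2 each), a difference of -3.97 ± 3.92 (SE; adjusted p = 0.824, limma). Gpc3 probe 316072 averaged 4.21 ± 0.30 in the high-metastatic and 7.12 ± 4.28 in the low-metastatic lines, a difference of -2.91 ± 2.31 (adjusted p = 0.799, limma). H19 averaged 4.90 ± 0.20 in the high-metastatic and 7.34 ± 3.61 in the low-metastatic lines, a difference of -2.45 ± 1.95 (adjusted p = 0.799, limma). In all 3 cases C6 lay among or beside the high-metastatic lines, far below C5F. Without C5F the differences turned to 0.99 for Afp, 0.12 for Gpc3 and 0.091 for H19.

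Igf2bp2 averaged 8.21 ± 0.995 in the high-metastatic and 8.30 ± 0.14 in the low-metastatic lines, a difference of -0.087 ± 0.57 (adjusted p = 0.982, limma). The low-metastatic values lay between those of L2 and N1, and the sign turned without N1 (0.61) or C6 (0.019). Gpc3 probe 159017 differed by 0.73 ± 0.20 (unadjusted p = 0.0290, adjusted p = 0.670, limma). All 4 of its spots in the lines were near background, and the difference was 0 once the floor was set at the lowest signal above background.

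**Figure D2:**
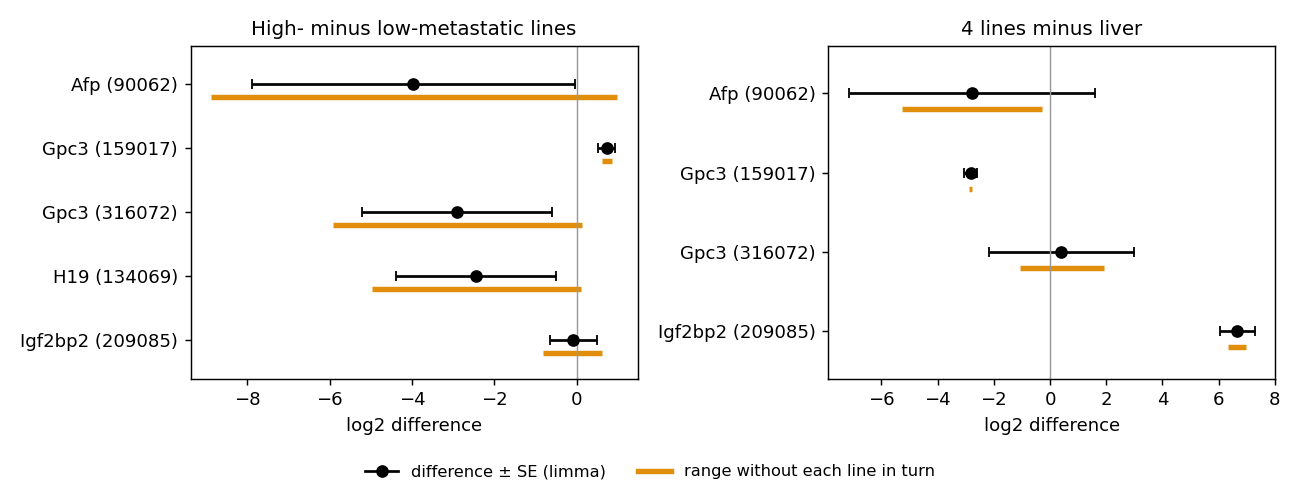
Fitted log2 differences (horizontal axis, points with bars of 1 SE from limma) for the tested probes, high- minus low-metastatic lines on the left and 4 lines minus liver on the right, with orange bars spanning the values without each line in turn. The orange bars of Afp, Gpc3 probe 316072 and H19 cross 0 on the left, whereas Igf2bp2 stays between 6.34 and 6.99 on the right.

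How far C5F stood from the other lines was then set beside all probes. Over 10442 probes usable in the 4 lines and above background in at least 1, C5F exceeded the highest other line by 7.31 on the log2 scale for Afp probe 90062, the difference ranked 6 from the top. Gpc3 probe 316072 ranked 11 with 5.72, and H19 ranked 16 with 4.86. A gap at least that wide was found for 0.0575% of probes for Afp, 0.105% for Gpc3 and 0.153% for H19. For Afp probe 51073, above background in C5F alone, the next line was a near-background spot, so that its gap has no exact size: it read 2.10, 1.12 with the floor at the lowest signal above background and 0.51 with an offset of 50. Igf2bp2 had -0.71, since L2 was above C5F.

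Gaps of at least 3 on the log2 scale above all other lines were found for 47 probes in N1, 59 in L2, 79 in C5F and 29 in C6. Some hepatocyte markers were higher in C5F together with these members. Of the 11, Ttr (8.71), Tf (8.90), Apoa1 (10.02), Apoc3 (4.63), Serpina1 (10.40) and Ahsg (4.04) were above background there and near background in N1, L2 and C6. Tat was at 5.69 in N1 and 5.73 in C5F, with irregular spots in L2 and C6. Alb, Cps1 and Fgb were near background in all 4 lines, and Cyp2e1 had an irregular spot in C5F. Their part in the levels of Afp, Gpc3 and H19 was not tested.

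**Figure D3:**
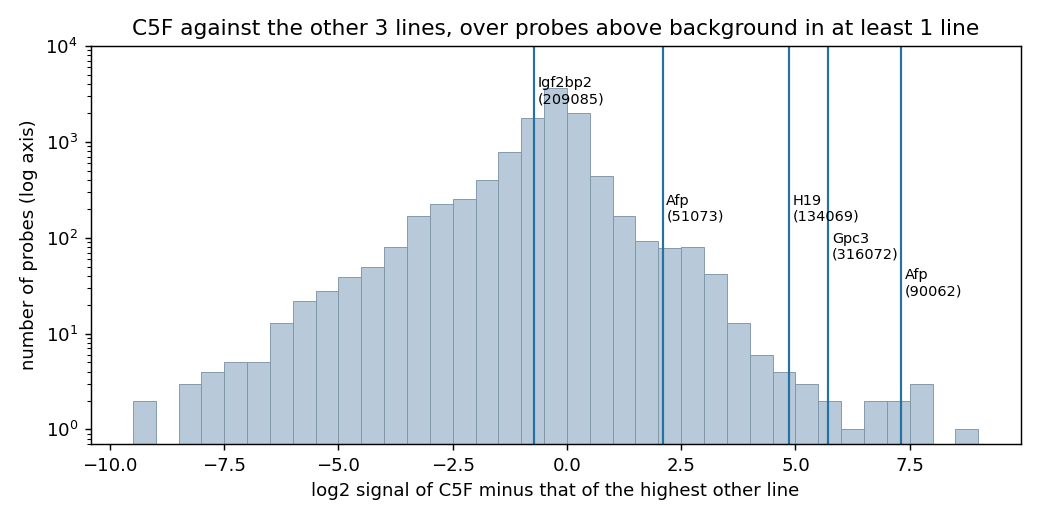
Number of probes (vertical, log axis) by the log2 signal of C5F minus that of the highest of N1, L2 and C6 (horizontal), over 10442 probes, with vertical lines at the member probes. Afp probe 90062 at 7.31, Gpc3 probe 316072 at 5.72 and H19 at 4.86 lie in the right tail, and Igf2bp2 at -0.71 lies in the bulk.

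The named genes most like each member were those with the smallest root mean square difference of centred log2 values over the 5 arrays, among 5743 probes. For Afp probe 90062 they were Apoe (1.75), Lcp1 (2.02) and Gpc3 probe 316072 (2.13). These are distant matches, since none combined the height of Afp in C5F with its level in liver. Gpc3 probe 316072 was nearest to Plxdc2 (0.36), P2ry14 (0.74) and Lcp1 (0.80). Plxdc2, P2ry14 and this Lcp1 probe (175097) were above background in C5F alone. The Lcp1 probe matched to Afp was a different one (89030), above background in C5F and liver. For Igf2bp2 the nearest were Ccne1 (0.65), a cyclin of the G1 to S transition, Tubb6 (0.83), a beta-tubulin, and Plaur (0.85), the urokinase receptor.

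The dim probes had smaller root mean square differences. The measure is not scaled to a probe's range, and most spots of these probes were near background. Their values therefore cannot be set against those of the bright probes. Afp probe 51073 was nearest to Il1rl2 (0.24), Snx3 (0.26) and Pdzd8 (0.27), and Gpc3 probe 159017 to Lyl1 (0.12), Tmem53 (0.14) and Tkfc (0.18). H19 had no usable liver spot, so its likeness was taken over the 4 lines and 5914 probes, which was decided once its values were known. There it was nearest to Serpina10 (0.12), Apoc2 (0.21) and Apom (0.28), all of which encode proteins secreted by hepatocytes. The likeness does not extend to liver. Serpina10 and Apom were higher in liver (10.03 and 11.33) than in C5F (6.51 and 8.66). With irregular spots kept, H19 was lower in liver (5.97) than in C5F (9.89), and Apoc2 had no usable liver spot. Serpina10 was above background in C5F and not in the other lines.

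The other imprinted genes went in both directions between the lines and liver. Of 48 listed, 37 had a probe, 11 of these were near background on every array and 17 could be tested against liver. In the lines 2 of the 17 rose and 3 fell, beside 9.01% higher and 9.38% lower over all tested probes, with a median log2 difference of -0.014 beside 0.15 over all tested probes. Phlda2, a placental growth restrainer, rose by 3.05 ± 0.29 (limma, adjusted p = 0.0349). Ascl2, a transcription factor, was also called higher (adjusted p = 0.0195), but it was above background only in C5F (4.99) and C6 (4.5), and near background in N1 (3.8), L2 (3.62) and liver, so that no fold is given. Dcn, a matrix proteoglycan of fibroblasts and stellate cells, fell at least 4.40-fold (adjusted p = 0.00703), and Ddc, a decarboxylase, at least 28.9-fold (0.0257). Slc22a18, an organic cation transporter, fell by 2.58 ± 0.47 (0.0478). The part of the stellate cell and fibroblast markers, more of which were above background in liver, in the value of Dcn was not tested. Some were above background in 1 line alone. Cdkn1c, a cell cycle inhibitor imprinted in the same chromosome region as H19 and Igf2, read 4.43 in C5F, and Atp10a (7.69), Ndn (5.33) and Kcnq1 (5.23) were above background in L2 alone. Another Kcnq1 probe stood at the floor in L2 (1.34). Phlda2 had no usable spot in L2, so its rise rests on 3 lines. Between the classes 0 of 18 were called.

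Among 32 other oncofetal and hepatoblast symbols, where Nope and Igdcc4 name the same gene, 23 had a probe. Of these, 6 were near background on every array: Igf2bp3, Lin28a, Tert, Sox9, Aldoc and Reg3b. Against liver 15 were tested, of which 5 rose and 1 fell, with a median difference of 2.01. Over all tested probes 9.01% were higher and 9.38% lower, with a median of 0.15. The 5 were Pkm (4.70 ± 0.29, limma, adjusted p = 0.0100) and Aldoa (3.43 ± 0.55, 0.0389), glycolytic isozymes of fetal liver, Hk2 (3.0 ± 0.30, 0.0366), a hexokinase, Gstp1 (3.17 ± 0.24, 0.0273), a glutathione transferase, and Akr1b8 (at least 45.0-fold, 0.00866), an aldo-keto reductase. A second Hk2 probe read -3.33 and was not called (adjusted p = 0.0942). Prom1, a membrane glycoprotein of progenitor cells, fell at least 2.73-fold (0.0280), a call lost when arrays were scaled to their medians. Hk2 had no usable spot in C6 and Gstp1 none in N1, so each of these rises rests on 3 lines. Between the classes 0 of 16 were called.

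**Figure D4:**
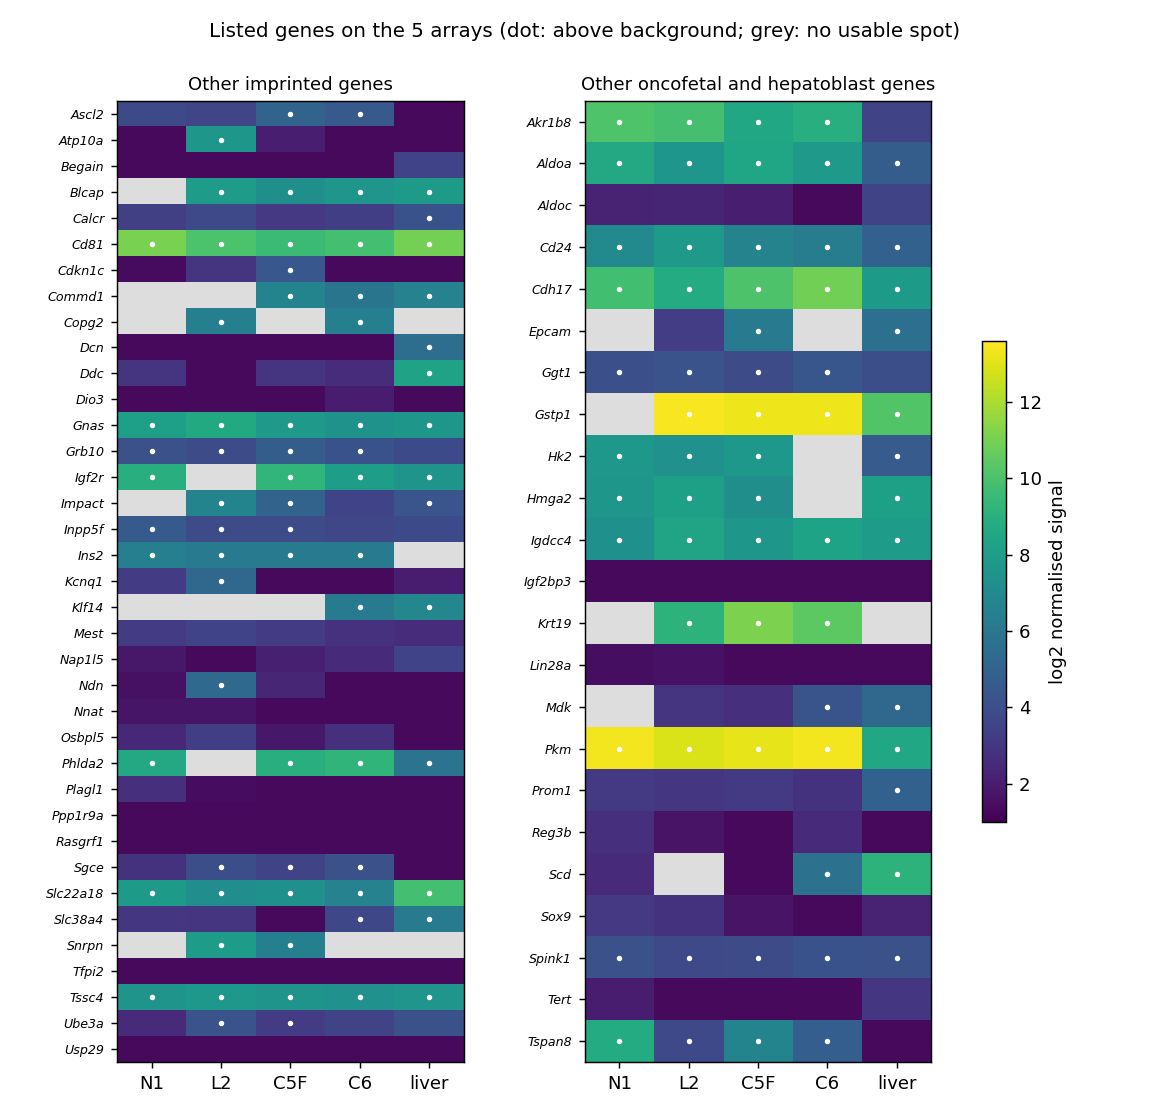
Log2 normalised signal (colour) of the listed imprinted genes (left) and oncofetal genes (right) on the arrays of N1, L2, C5F, C6 and liver, with a dot where the spot was above background and grey where no spot was usable. Colours compare arrays within a gene and not genes with each other; Cdkn1c at 4.43 is dotted in C5F alone, and Akr1b8 is dotted in all 4 lines and not in liver.

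Alb and Afm, the neighbours of Afp, were near background in C5F, where Afp was brightest. Alb stood at the floor in all 4 lines and fell at least 263-fold (limma, adjusted p = 0.00627), and Afm was near background on each array with a usable spot. Gc, the vitamin D carrier of the same family, was above background in C5F (7.15) and liver (12.75) and at the floor in N1, L2 and C6, and its difference of -9.95 ± 2.48 was not called (adjusted p = 0.0779). Of 22 listed regulators of Afp, 8 were tested, 0 rose and 2 fell, beside 9.01% higher and 9.38% lower over all tested probes, with a median of -0.80. Foxa1, a pioneer factor of liver genes, fell at least 6.15-fold (0.0119) and Hnf4a by 2.07 ± 0.30 (0.0332). Zbtb20, a repressor of Afp after birth in mice, gave 3.91 in N1, 3.75 in L2, 4.33 in C5F, 3.33 in C6 and 4.80 in liver (adjusted p = 0.229). Zhx2, another such repressor in mice, was near background on every usable spot.

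The counts of the lists that follow stand beside 9.01% higher, 9.38% lower and a median of 0.15 over all tested probes. Of 11 glypicans and heparan sulphate enzymes 3 were tested and 0 were called by limma (median -1.26), although 1 was called lower with an offset of 50, with the floor at the lowest signal above background, with irregular spots kept and with robust moderation, and 2 with no class term. The brightest probe of Gpc4, which neighbours Gpc3, was above background in C5F (3.37) and liver (5.84), and its difference of -3.60 ± 0.70 was not called (adjusted p = 0.0518, limma). Other Gpc4 probes did not repeat the liver level. Probe 25106 read 1.34 in both C5F and liver, and probe 306051 read 2.65 in C5F and 1.73 in liver. Of 15 genes of the IGF2 axis 7 were tested, 0 rose and 1 fell (median -0.89): Igf1, at the floor in all 4 lines, was at least 90.2-fold lower (adjusted p = 0.00627). Igfbp1, a secreted binding protein, read 10.88 in C5F and 4.71 in C6, stood at the floor in N1 and L2 and had no usable liver spot. Of 13 listed genes that act on DNA methylation, histone methylation or imprints 5 were tested, 3 rose and 0 fell (median 1.69). They were Uhrf1 (2.41 ± 0.29, limma, adjusted p = 0.0442), Ctcf (at least 1.92-fold, 0.0283), which binds the control region between H19 and Igf2, and Ezh2 (at least 2.51-fold, 0.0401), a histone methyltransferase. Uhrf1 had no usable spot in C6 and Ezh2 none in N1, so each rests on 3 lines. Of 9 symbols listed for the Dlk1 and Notch axis, where Pref1 is another name of Dlk1, 3 were tested. These were Notch1, Jag2 and Fn1, and their median of -2.28 is the value of Fn1. The Notch ligand Jag2 was called higher (limma, adjusted p = 0.0393), and 0 fell. Jag2 was above background only in C5F (3.40) and C6 (3.98), so that no difference is given, and the count of higher genes on this axis was 0 with the authors' intensity, the offset, that floor and no filter. All of these list counts were 0 without C5F, and also 0 without C6. Without N1, 0 imprinted, 3 oncofetal, 0 methylation and 0 Notch genes rose, and without L2 the numbers were 0, 2, 0 and 0. In both cases 0 oncofetal genes and 0 regulators of Afp fell, while 2 Notch axis genes were called lower without N1 and 1 without L2.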

How the data were processed

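Scans were quantified by the authors with CodeLink Expression Analysis 4.1.0.29054, per the file headers. The deposited raw intensity per spot already has background subtracted, and the deposited normalized intensity is that intensity divided by the array median, per the file headers. Steps before the scan beyond the labelled extraction and labelling are not given in the sources used here.

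The raw intensity of the 33849 discovery probes was used. Irregular, contaminated and masked spots were set to missing (2274 to 2946 irregular per array), signals were quantile normalised with limma 3.58.1 in R 4.3.3, floored at 2.53 (the median of near-background spots) and taken to log2, from the deposited intensity. Probes were kept if the liver spot, or the spots of 2 or more lines, were above background (16377). One limma fit with 3 groups, empirical Bayes moderation (prior 1.46 degrees of freedom) and two-sided tests gave both comparisons, adjusted by Benjamini-Hochberg over all probes with a residual degree of freedom. The single liver array was given the spread of the lines, and the number of arrays limits the precision. The p-values measure the spread between lines, moderated by the prior. Where all line spots stood at the floor, as for Alb, Igf1 and Dcn, that spread was 0. Their SE of 0.19 then came from the prior alone, so that those p-values measure no spread between lines. The fit was also run on simulated data with normal noise, no floor and no missing spots. That run cannot test calls that rest on floored or missing spots.

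Platform symbols were updated through a RefSeq gene table (GRCr8, names and neighbours only), where 12177 of 12201 Entrez numbers matched. A gene of several probes in a list was represented by its brightest. Named genes were all members, the 3 most alike per member probe, list genes past the threshold, and list genes whose role bears on the members. The members and lists were chosen with earlier results of these data known. Promoter matches covered Afp, Gpc3, Igf2 (2 windows), Dlk1, Igf2bp2 and Peg3. Alternatives covered the scaling, the authors' normalized intensity, the floor, the filter, irregular spots, robust moderation, a model with no class term and leaving out each line.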

Additional observations from a re-analysis of the deposited data

Results flagged for a closer look

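Gpc3 probe 316072 stood out in C5F, where its log2 signal of 10.15 was separated from the nearest of the other 3 lines by 0.930 of the whole range of the 4 lines, above Dixon's critical value for 4 samples. H19 stood out in C5F in the same way, with 9.89 and 0.945 of the range. Afp probe 90062, with 0.70 of the range, did not pass that value. Its range runs down to N1, a near-background spot at the floor, so that this share depends on the floor. Chance passes the critical value in about 1 of 20 groups, and 6 probes were examined. Dlk1 had a signal in spots that the main comparisons left out: its irregular spots read 5.93 in N1, 5.41 in C5F and 5.63 in C6, above the 5.29 of liver with irregular spots kept.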

How the results depend on the processing

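No paired analysis was possible because nothing in the sample labels numbers replicates. Between the lines and liver, 1077 probes were higher and 1121 lower. The higher count moved to 621 with an offset of 50, 602 with the floor at the lowest signal above background, 623 without the filter and 1850 with irregular spots kept. The lower count moved to 1751 with that floor and 1725 without the filter. Leaving out each line gave 0 to 132 higher and 0 to 485 lower probes, with 0 of both without C5F or C6, where fewer arrays remain. Between the classes the count was 0 under every setting run. Signs turned only when a line was left out. Gpc3 probe 316072 against liver ranged from -1.07 (without C5F) to 1.90 (without C6). The class differences ranged from -8.88 to 0.99 for Afp probe 90062, from -5.91 to 0.12 for Gpc3 probe 316072 and from -4.96 to 0.091 for H19, in each case without C6 and without C5F. The class difference of Igf2bp2 ranged from -0.82 (without L2) to 0.61 (without N1), with 0.019 without C6. Other scalings put the median of all lines minus liver differences at 0.29 (median scaling), 0.22 (75th percentile) and 0.14 (the authors' intensity), beside 0.15. The lead of C5F over the other lines ranged from 5.63 to 7.62 for Afp probe 90062, 4.05 to 5.90 for Gpc3 probe 316072 and 3.59 to 4.98 for H19 over these settings. With irregular spots kept, H19 differed from liver by 0.15 ± 2.19 (limma, adjusted p = 0.968) and Dlk1 by 0.34 ± 0.26 (0.395). Over the settings that keep all lines, 0 to 2 listed imprinted genes, 3 to 6 oncofetal genes and 1 to 4 methylation genes rose. Near-background spots give bounds only, and 1 array per line and 1 liver leave the spread of a line itself unmeasured.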
